A study of Equus caballus with 3 samples.

Results

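Among mesenchymal stromal cells (MSCs) grown from bone marrow (BM) of 1 horse, 401 cells carried transcripts of the developmental transcription factor genes *HMX2*, *HMX3* or *HAND2* and no transcript of *JAM2*. They were 7.19% of the 5580 BM-derived MSCs kept after filtering, and the 3 libraries of the series held 16301 kept cells in all. The rule used the counts themselves: a kept barcode with 1 or more unique molecular identifiers (UMIs) summed over *HMX2*, *HMX3* and *HAND2* and 0 UMIs of *JAM2*. They are called HMX+ JAM2- cells below. They were compared with 4244 reference cells, the kept BM-derived MSCs with at least 1 *JAM2* UMI and none of the other 3 genes. A further 140 BM-derived MSCs had UMIs on both sides of the rule and 795 had neither.

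The donor was a healthy adult warmblood mare, 10 years old, and MSCs of its adipose tissue (AT), BM and peripheral blood (PB) were passaged in culture and captured with the 10x Genomics 3′ chemistry (v2). Each source was 1 library of cultured cells, so there was no replicate, no test was run across cells, and all differences are descriptions of these libraries. The source of each library was taken from its title, since the source name field of all 3 samples gives blood mononuclear cells. The kept BM-derived MSCs held 40239295 UMIs, and 95% intervals below (exact Poisson for sums, exact Clopper-Pearson for shares) cover counting error only.

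HMX2 and HMX3 are homeodomain proteins encoded by neighbouring genes and are best known from the inner ear and hypothalamus of the embryo. HAND2 is a basic helix-loop-helix factor of the developing heart, limb bud and pharyngeal arches. JAM2 is an immunoglobulin-type junctional adhesion molecule that stromal and endothelial cells use to contact other cells, including blood progenitors. IGFBP5, the marker given for the HMX+ JAM2- cells in addition to the rule genes, is a secreted binding protein that holds insulin-like growth factors (IGFs) in the matrix.

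The rule genes themselves describe how the cells were chosen and support nothing else. In the HMX+ JAM2- cells, *HMX2* (chromosome 1 in the deposited annotation) had 449 UMIs in 269 cells, *HMX3* (chromosome 1) had 207 UMIs in 155 cells and *HAND2* (chromosome 2) had 216 UMIs in 166 cells. Of the 401 cells, 135 had *HMX2* alone, 48 *HMX3* alone, 58 *HAND2* alone and 29 all 3 genes. The name HMX+ is therefore not met by UMIs in the 58 cells with *HAND2* alone, 55 of which fell in the same rebuilt cluster as most of the other cells. *JAM2* (chromosome 26) was at 598 CPM (counts per 1e6, here the UMIs of the gene scaled to the summed UMIs of the group) in the reference cells. In all kept cells of the other sources, *HMX2* was at 1.68 CPM in AT and 0.0961 CPM in PB. *HAND2* was at 0.100 CPM in AT and 25.2 CPM in PB, and the same rule found 296 PB-derived and 100 AT-derived MSCs. In the whole libraries, whatever their *JAM2*, 4 PB-derived and 97 AT-derived MSCs had an *HMX2* or *HMX3* UMI.

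The cells just inside and just outside the rule gave the following levels. *IGFBP5* was at 83.5 CPM (95% interval 69.6 to 99.4) in the 170 HMX+ JAM2- cells with 1 UMI of the 3 genes, at 101 CPM in the 107 cells with 2 and at 103 CPM in the 124 cells with 3 or more. In the 795 cells with neither it was at 32.2 CPM, in the 61 cells with both and 1 *JAM2* UMI at 90.0 CPM (95% interval 68.2 to 117), and in the 79 cells with both and 2 or more *JAM2* UMIs at 22.0 CPM (95% interval 12.8 to 35.3). Inside the rule the intervals of the 3 levels overlapped, and cells with 2 or more *JAM2* UMIs lay between the HMX+ JAM2- and the reference cells. Among the cells with both, 33 of 140 (23.6%) were among the 5% of BM-derived MSCs with the highest doublet score of Scrublet, against 3 of 401 HMX+ JAM2- cells (0.748%) and 286 of 4244 reference cells (6.74%). The part of doublets in the cells with both was not tested.

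When all kept BM-derived MSCs were clustered with the 4 rule genes taken out of the matrix, 391 of the 401 HMX+ JAM2- cells (97.5%, 95% interval 95.5 to 98.8%) fell in a single cluster of 652 cells. The same cluster took 28 of the 4244 reference cells (0.660%), 69 of the 140 cells with both and 164 of the 795 cells with neither. At resolutions of 0.4 and 0.8 it again held 391 of the 401 cells. The 164 cells of that cluster with no rule UMI had *IGFBP5* at 119 CPM (95% interval 101 to 139), *CALCA* at 217 CPM (95% interval 193 to 244) and *EMB* at 127 CPM (95% interval 108 to 148). In the 631 cells with neither in other clusters these genes were at 2.10, 1.84 and 2.36 CPM. Cells with the leading genes were thus also found outside the rule. These genes stayed in the clustered matrix, so the contrast between the 164 and the 631 cells may follow from the clustering and is a description. Of the 10 HMX+ JAM2- cells outside the cluster, 5 were called G1 and 3 were among the highest Scrublet scores.

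The HMX+ JAM2- cells were deeper than the reference cells, with a median of 9603 against 6744 UMIs and 2882 against 2160 genes, and their median mitochondrial share was 2.07% against 1.94%. The rule asks for a UMI, and with every cell thinned to 2500 UMIs it found 220 cells. At that depth the medians of the groups as first chosen were 1230 and 1123 genes. Shares of cells with a UMI are therefore given for most genes at this depth too. Of the 401 barcodes, 11 also occurred in the AT library and 5 in the PB library, against 60 and 31 of the 4244 reference barcodes. Without barcodes that the AT or PB library also held, the *IGFBP5* difference described below was 5.27 against 5.24.

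Most HMX+ JAM2- cells were called in cycle. Seurat, which scores each cell on lists of S and G2/M genes, called 36 of them G1, 162 S and 203 G2/M. The S or G2/M share was thus 91.0% (95% interval 87.8 to 93.6%) against 24.9% (95% interval 23.6 to 26.2%) in the reference cells. At 2500 UMIs per cell the shares were 91.5% and 30.7%. The cells with both were intermediate at 63.6% and those with neither were at 41.5%, with 87.8% in the 164 of them that shared the main cluster. The main cluster as a whole was at 90.6%. Another BM cluster of 636 cells, with 521 reference and 3 HMX+ JAM2- cells, was at 91.0%. A high share in cycle was thus not particular to the HMX+ JAM2- cells. The plot of called phases gives the 4 groups.

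**Figure D1:**
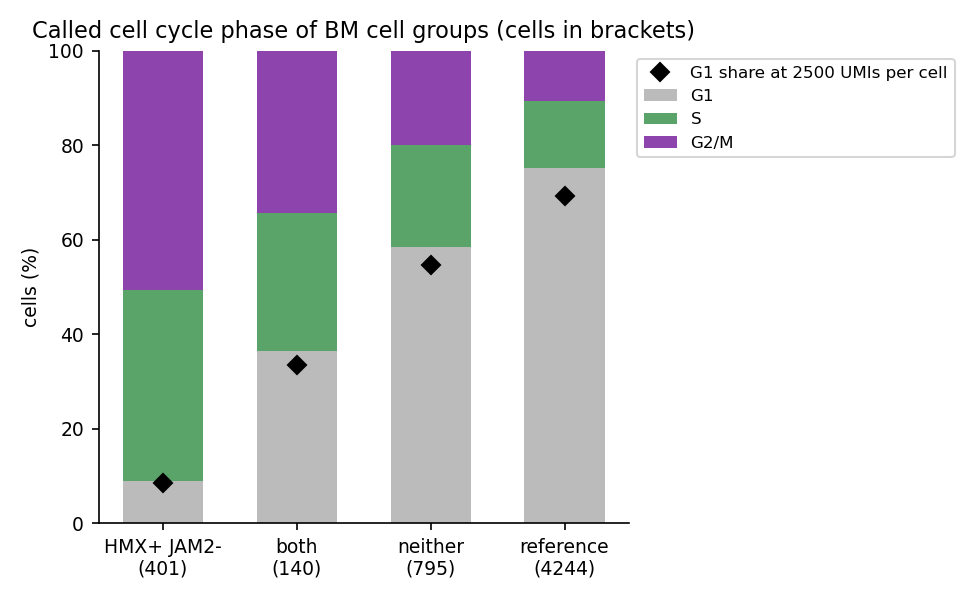
Stacked bars give the percentage of cells called G1, S and G2/M in the 401 HMX+ JAM2-, 140 both, 795 neither and 4244 reference cells of the BM library, and diamonds the G1 share after thinning to 2500 UMIs per cell. The G1 share was 8.98% in HMX+ JAM2- and 75.1% in reference cells, and thinning did not change the order of the 4 groups.

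The 2 lists from which the phases were called are given as a description, since the calls rest on them. Of the genes of the S list (DNA replication) at 10 CPM or more in either group, 36 of 37 were higher in HMX+ JAM2- cells by 1 or more on the log2 scale, and of the G2/M list (mitosis) 42 of 47 were. The summed level of the S list was 2744 against 833 CPM and that of the G2/M list 6815 against 2480 CPM. Between cells called S or G2/M in both groups, 0 of the 37 S genes and 2 of the 47 G2/M genes differed by that much, with medians of 0.47 and 0.59, a narrowing that follows from choosing cells by these lists. Because phase and group moved together, each difference below is given for all cells and, where it matters, for the 365 HMX+ JAM2- and 1055 reference cells called S or G2/M.

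The genes detected in 25% or more of either group numbered 4027, and 457 (11.3%) were higher and 232 (5.76%) were lower in HMX+ JAM2- cells by 1 or more in the difference of log2(CPM + 1). The members were chosen by UMIs of the same cells, so these counts are a description. A gene can also meet the 25% share in 1 group only, and the HMX+ JAM2- cells were the deeper group. With every cell thinned to 2500 UMIs and the groups chosen again, 160 genes were higher (10.6%) and 111 lower (7.37%). With no filter on genes, 1142 were higher (6.49%) and 1044 lower (5.93%). Between S or G2/M cells, the counts over the same 4027 genes were 120 higher (2.98%) and 152 lower (3.77%). Of the 457 higher genes 116 stayed past the threshold in S or G2/M cells, and of the 232 lower genes 144. In both phase classes, G1 as well as S or G2/M, 84 of the higher and 105 of the lower genes passed it. The median difference of the 4027 genes was 0.25. With TMM factors of edgeR, which scale on the bulk of the genes, it fell by 0.21, to 0.05, and 322 genes were higher and 332 lower. Over all genes at 10 CPM or more in either group, the base of the list counts below, 785 of 7485 were higher (10.5%) and 561 lower (7.49%), and in S or G2/M cells 260 (3.47%) and 426 (5.69%). A gene that reaches 10 CPM in 1 group only enters through the group where it is high, which was so for 327 of the 785 higher and 279 of the 561 lower genes. The list counts below are therefore descriptions of the genes that reached this level.

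**Figure D2:**
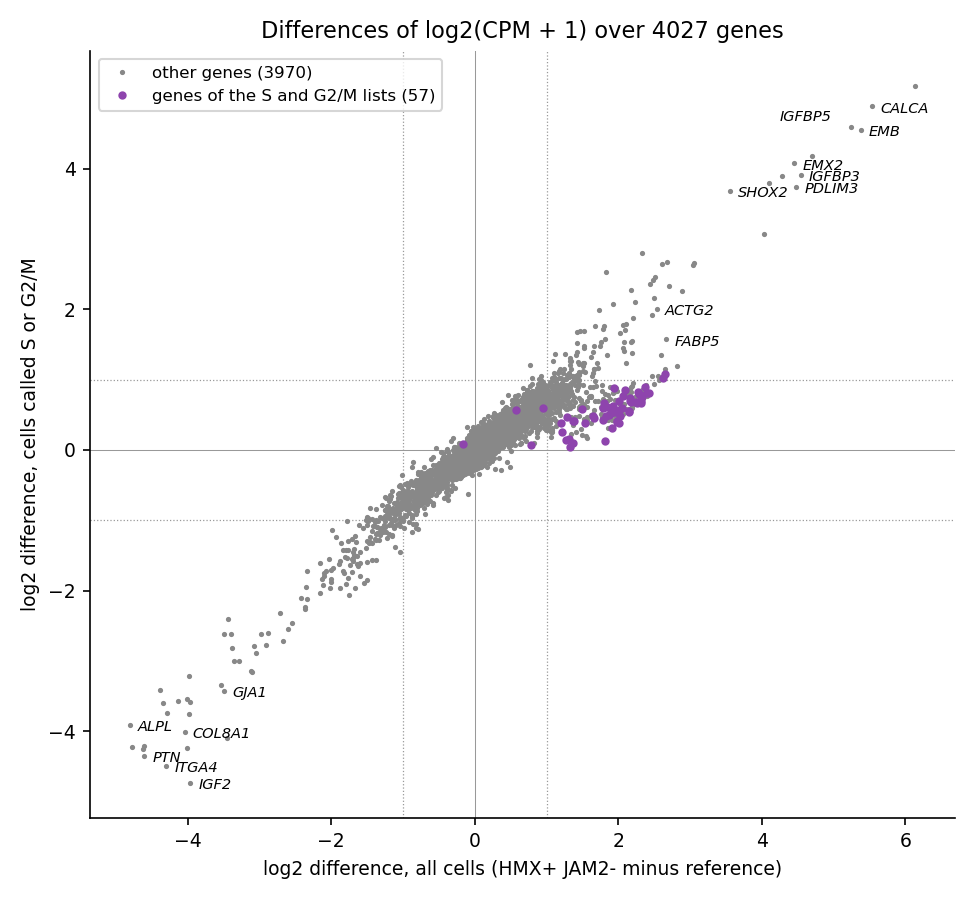
Each point is 1 of 4027 genes, with its difference of log2(CPM + 1) between HMX+ JAM2- and reference cells over all cells on the x axis and over cells called S or G2/M on the y axis, and dotted lines mark differences of 1 and -1. *CALCA*, *EMB*, *IGFBP5*, *SHOX2*, *ALPL* and *PTN* lie far from 0 on both axes. The 57 genes of the S and G2/M lists (purple) lie nearer to 0 on the y axis, which follows from the choice of its cells by scores on these lists.

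*IGFBP5* had 366 UMIs in 180 of the 401 HMX+ JAM2- cells and 46 UMIs in the 4244 reference cells. Its level was 94.8 CPM (95% interval 85.4 to 105) against 1.54 CPM (95% interval 1.13 to 2.06), a log2 difference of 5.24 (counting interval 4.82 to 5.64). It was found in 44.9% against 0.848% of cells, or 19.5% against 0.306% at 2500 UMIs per cell, and 17 was the highest count in a cell. The level was 104 CPM in the 36 HMX+ JAM2- cells called G1, so the difference was 5.70 in G1 cells and 4.59 in S or G2/M cells. AT-derived MSCs were at 258 CPM and PB-derived MSCs at 0.0240 CPM, so the HMX+ JAM2- cells lay between the AT-derived MSCs and the reference cells. *IGFBP5* was at 14.03 CPM in the 526 BM barcodes under 2500 UMIs, close to its 16.2 CPM over all kept BM-derived MSCs, and the part of free RNA in the 46 reference UMIs was not tested.

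The 12 genes with the largest difference were led by an Ensembl gene without a symbol. ENSECAG00000031731, on chromosome 3 and not paired with a name in the files, was at 204 CPM against 1.91 CPM (log2 difference 6.14), in 48.1% against 0.943% of cells (26.9% against 0.306% after thinning). *CALCA*, which encodes calcitonin and the neuropeptide CGRP, was at 161 CPM (95% interval 149 to 174) against 2.51 CPM, a difference of 5.53. It was found in 34.4% against 0.9896% of cells (20.4% against 0.401% after thinning), and the 10% of HMX+ JAM2- cells with the most *CALCA* held 71.2% of its UMIs. Its distribution was the most uneven of the 7 leading genes with symbols described here.

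*EMB*, the gene of embigin, a membrane glycoprotein that accompanies lactate transporters, was at 117 against 1.84 CPM, a difference of 5.38, and was found in 57.6% against 1.15% of cells (23.2% against 0.471% after thinning). *IGFBP3*, the main carrier of IGFs in blood, was at 45.6 against 1.005 CPM, a difference of 4.54. *PDLIM3*, a PDZ and LIM domain protein of the muscle Z-disc, was at 137 against 5.23 CPM, a difference of 4.47. These genes were low in both other sources, with *IGFBP3* at 4.15 CPM and *PDLIM3* at 17.1 CPM in AT, and at 0.120 and 1.20 CPM in PB. *EMB* was at 15.6 CPM in AT and 0.0240 CPM in PB.

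Another 2 of the leading genes were homeobox genes. *EMX2*, known from the forebrain, the urogenital ridge and the shoulder girdle, was at 32.6 against 0.536 CPM, a difference of 4.45, and was found in 25.2% against 0.353% of cells (6.23% against 0.0943% after thinning). *SHOX2*, a factor of the limb skeleton and the cardiac pacemaker, was at 53.6 against 3.65 CPM, a difference of 3.55. Unlike *EMB*, *IGFBP3* and *PDLIM3*, *SHOX2* was at like levels of 47.9 CPM in AT and 45.1 CPM in PB, and the reference cells were lowest. ENSECAG00000035530 was at 122 against 3.72 CPM, and the other 3 leading genes carried no symbol either. All 12 differed by 1 or more in the same direction in G1 cells and in S or G2/M cells.

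**Figure D3:**
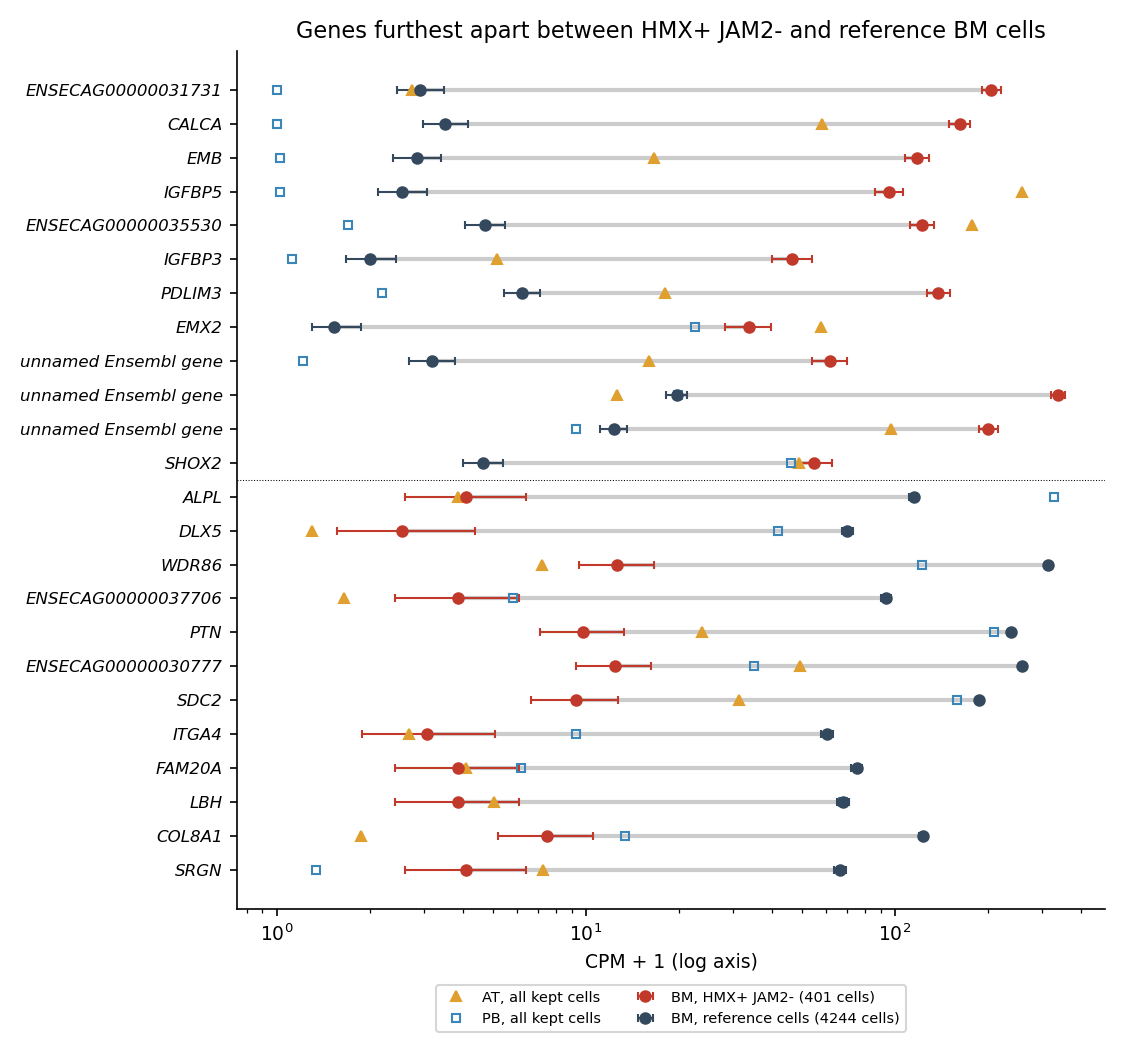
Points give CPM + 1 on a log axis for the 12 genes most above (upper block) and the 12 most below (lower block) the reference cells, with exact 95% Poisson intervals for HMX+ JAM2- (red) and reference cells (dark), triangles for AT and open squares for PB. In the upper block *IGFBP5*, ENSECAG00000035530 and *EMX2* were higher in AT than in HMX+ JAM2- cells, and *ALPL* was highest in PB at 326 CPM.

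The 12 leading genes were chosen for their difference between these same cells, so their counts per cell in the HMX+ JAM2- and reference cells follow from the choice and are given as a description. The median HMX+ JAM2- cell had UMIs of 5 of the 12 and the median reference cell of 0. At least 4 of the 12 were found in 319 of 401 HMX+ JAM2- cells (79.6%), 25 of 4244 reference cells (0.589%) and 126 of the 164 cells with neither in the main cluster (76.8%). The last share is also a description, since the 12 genes stayed in the matrix from which the main cluster was made. At 2500 UMIs per cell, 26.2% of HMX+ JAM2- and 0.212% of reference cells had 4 or more. Together with 4 or more of the 12 lowest genes, they were found in 2 HMX+ JAM2- cells (0.499%) but in 19 of the 140 cells with both (13.6%).

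**Figure D4:**
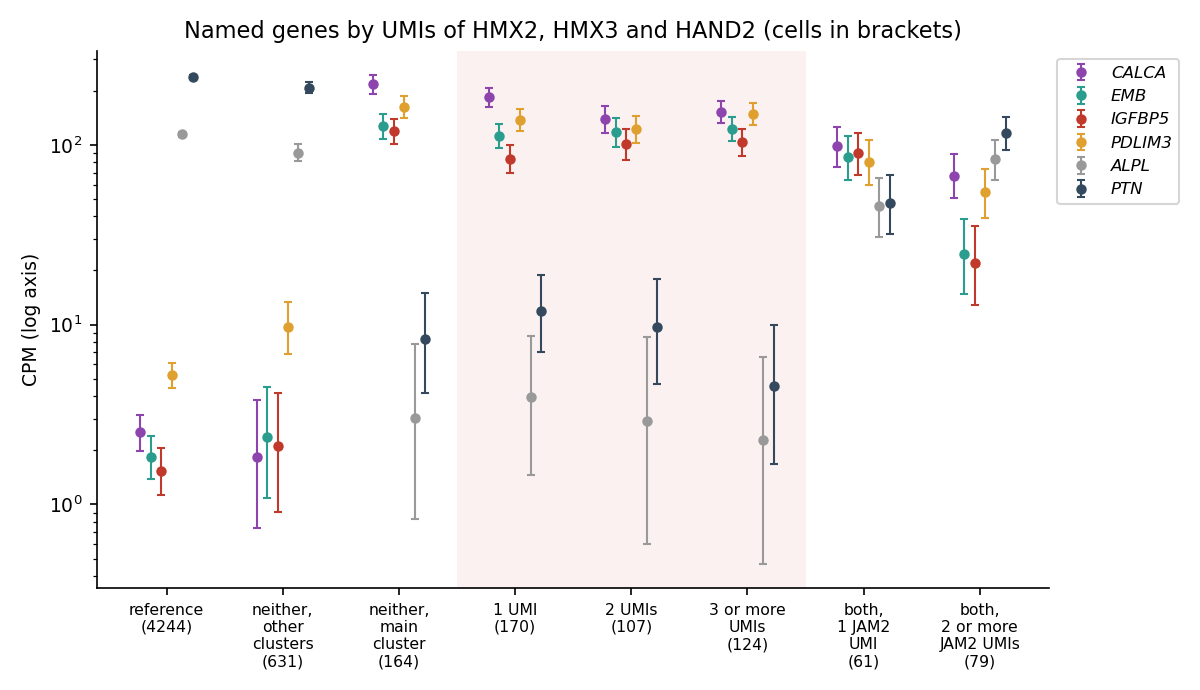
CPM on a log axis of 4 leading (*CALCA*, *EMB*, *IGFBP5*, *PDLIM3*) and 2 of the lowest genes (*ALPL*, *PTN*), with exact 95% Poisson intervals, in BM cell classes ordered by UMIs of the rule genes, with the HMX+ JAM2- cells shaded. The 164 cells with neither in the main cluster had *CALCA* at 217 CPM, above the 139 CPM of cells with 2 UMIs and the 153 CPM of cells with 3 or more. The intervals did not overlap but cover counting error only, not the uneven spread of *CALCA* UMIs between cells. The shares of cells with *CALCA* were 43.9, 35.5 and 38.7% in the same order. Cells with both show the leading and the lowest genes side by side.

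Below the 25% share, the 6 genes with the largest difference and 20 or more UMIs in HMX+ JAM2- cells included *CXCL8*, *SERPINB10*, *BAIAP2L1* and *PAX6*. *PAX6*, the eye and pancreas transcription factor, had 61 UMIs in 54 HMX+ JAM2- cells and 11 UMIs in the reference cells, or 15.8 against 0.368 CPM. *SERPINB10*, an intracellular protease inhibitor, was at 35.0 against 0.938 CPM, and *BAIAP2L1*, a membrane-bending adaptor, at 24.4 against 0.737 CPM. *CXCL8*, the neutrophil chemokine interleukin-8, was at 24.9 against 0.368 CPM, but its 96 UMIs lay in 17 of the 401 cells, with 24 in a single cell. It was at 8.84 CPM in PB and 0.325 CPM in AT. After thinning, *PAX6* was found in 3.99% and *CXCL8* in 2.49% of HMX+ JAM2- cells.

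At the other end, genes of bone formation were low. *ALPL*, the alkaline phosphatase that mineralizing cells need, had 12 UMIs in HMX+ JAM2- cells, 3.11 CPM (95% interval 1.61 to 5.43), against 114 CPM in reference cells, a log2 difference of -4.81. It was found in 2.99% against 41.4% of cells (0.499% against 22.6% after thinning). *DLX5*, a homeobox activator of osteoblast genes, was at 1.55 against 69.3 CPM, a difference of -4.78. *IBSP*, bone sialoprotein, had 0 UMIs in HMX+ JAM2- cells, where 3 UMIs would be 0.777 CPM, against 39.9 CPM in reference cells. In reference cells *IBSP* was at 52.1 CPM in G1 and at 7.13 CPM in S or G2/M.

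All 6 listed osteoblast genes that reached 10 CPM in either group, each in reference cells only, among them *ALPL*, *IBSP*, *SP7*, *SPP1* and *IFITM5*, were lower by 1 or more, and all 6 were also lower in S or G2/M cells. Of the 3 adipocyte genes at this level, only *FABP5*, a fatty acid binding protein, was higher, at 287 against 44.5 CPM, and its difference of 2.66 was 1.57 in S or G2/M cells. *SOX9*, the cartilage factor, was at 1.81 against 14.4 CPM and alone in its list at this level. Summed over the 11 osteoblast genes in the matrix, HMX+ JAM2- cells were at 15.8 CPM and reference cells at 262 CPM. All kept cells of AT were at 17.5 CPM and those of PB at 446 CPM, so the low osteoblast sum was shared with AT.

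Of the listed niche genes, by which marrow stroma addresses blood-forming cells, 4 of 10 reached 10 CPM. *PTN*, pleiotrophin, a heparin-binding growth factor, was at 8.81 CPM (95% interval 6.10 to 12.3) against 238 CPM, a difference of -4.60, and was found in 7.23% against 66.9% of cells (2.49% against 40.6% after thinning). *CXCL12*, the chemokine that retains blood progenitors in marrow, had 3 UMIs in HMX+ JAM2- cells and 905 in reference cells, a ratio of 0.0256 (95% counting interval 0.00528 to 0.0752). All 4 niche genes at 10 CPM or more, a level reached in reference cells only, *PTN*, *CXCL12*, *SPP1* and *BMP4*, were lower over all cells and in S or G2/M cells. The lists share genes, since *SPP1* is also in the osteoblast list and *PTN* in the growth factor list, so their counts are not separate results. In AT *PTN* was at 22.8 CPM and in PB at 209 CPM, both above the level in HMX+ JAM2- cells. Summed over the 10 listed niche genes, HMX+ JAM2- cells were at 25.7 CPM and reference cells at 324 CPM. The sums were 37.9 CPM in AT and 237 CPM in PB, so a low niche sum was shared with AT.

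Among the other of the 12 lowest genes, *FAM20A*, a pseudokinase of the secretory pathway needed for enamel, was at 2.85 against 74.3 CPM. *LBH*, a cofactor of limb bud and heart, was at 2.85 against 67.0 CPM and *SRGN*, a proteoglycan of secretory granules, at 3.11 against 65.5 CPM. *WDR86*, a WD-repeat gene, was at 11.7 against 312 CPM, with UMIs in 9.23% against 72.6% of cells (1.496% against 46.8% after thinning). All 12 were lower by 1 or more in G1 cells and in S or G2/M cells. The lowest genes without symbols were ENSECAG00000037706, at 2.85 against 92.8 CPM, and ENSECAG00000030777, at 11.4 against 257 CPM, which the files do not pair with names.

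Among 19 genes of junctions and adhesion other than *JAM2*, 8 were lower, 4 of which reached 10 CPM in reference cells only, and 2 were higher, both of which reached it in HMX+ JAM2- cells only. *ITGA4*, the α4 integrin chain that binds VCAM1 and fibronectin, was at 2.07 against 59.5 CPM, a difference of -4.30. *SDC2*, a heparan sulphate proteoglycan of the cell surface, was at 8.29 against 187 CPM, a difference of -4.34. *GJA1*, a gap junction connexin, was at 58.8 against 676 CPM, a difference of -3.50, with UMIs in 35.4% against 94.3% of cells (10.5% against 75.9% after thinning). The other 2 junctional adhesion molecules of the list did not reach a difference of 1, with *JAM3* at 25.7 against 20.8 CPM and *F11R* at 13.5 against 8.21 CPM. *GJC1*, another connexin, and *ITGA3*, the α3 integrin chain, were higher, each by 1.43. In S or G2/M cells 6 of the 19 genes were lower and 2 higher.

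Extracellular matrix genes differed by class. Of 12 collagen genes 9 were lower and 0 higher, and 8 were lower in S or G2/M cells. *COL8A1*, a short-chain network collagen, was at 6.48 against 122 CPM (-4.04), and *COL1A2*, a chain of the main bone and tendon collagen, at 1773 against 4213 CPM (-1.25, and -0.79 in G1 cells) with a UMI in every cell of both groups. Of 8 small leucine-rich proteoglycans, which bind collagen fibrils, 5 were lower and 0 higher, among them *LUM* at 1120 against 4696 CPM and *OMD*, the bone-matrix osteomodulin, at 5.44 against 68.9 CPM. Of these 5 lower genes 3 reached 10 CPM in reference cells only, as did 3 of the 9 lower collagens. The summed collagen level of HMX+ JAM2- cells was 4981 CPM, against 10155 CPM in reference cells, 16705 CPM in AT and 16943 CPM in PB, so HMX+ JAM2- cells had the lowest sum of the 4 groups. In S or G2/M cells the sums were 4754 CPM in HMX+ JAM2- and 8351 CPM in reference cells, while AT and PB were not split by phase. The cells with neither in the main cluster were at 5361 CPM.

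The elastic fibre and matricellular list was split, with 11 of 21 genes lower and 5 higher. The higher genes were *FBLN1* (116 against 20.4 CPM), *MFAP2* (701 against 197 CPM), *THBS2* (360 against 112 CPM), *FBLN2* (344 against 119 CPM) and *THBS1* (717 against 318 CPM), which encode fibulins, a microfibril protein and thrombospondins. All 5 were also higher in S or G2/M cells, whereas with TMM factors 4 were. Of the 11 lower genes 9 were also lower in S or G2/M cells, and 2 reached 10 CPM in reference cells only. Lower genes included *CTGF*, a matricellular protein induced by mechanical load and TGF-β, at 35.0 against 228 CPM, and *FN1*, fibronectin, at 184 against 598 CPM. Of 12 matrix proteases and inhibitors 5 were lower, led by *TIMP3* at 15.8 against 138 CPM, and 1 was higher, with 0 higher in S or G2/M cells or with TMM factors.

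The IGF axis was divided, with carriers on both sides. Of 11 genes at 10 CPM or more, *IGFBP5* and *IGFBP3* were higher and 6 were lower, and the same numbers were found in S or G2/M cells. Both higher genes and 4 of the 6 lower ones reached 10 CPM in 1 group only. *IGF2*, the ligand, was at 7.25 against 128 CPM (-3.96), with UMIs in 2.00% against 26.6% of cells (1.25% against 16.3% after thinning). Its 28 UMIs lay in 8 of the HMX+ JAM2- cells, and the difference was -1.31 in G1 cells and -4.73 in S or G2/M cells. *IGFBP6*, which prefers IGF2, was at 244 against 872 CPM (-1.83), *IGFBP4* at 93.0 against 193 CPM (-1.04, and -0.64 in G1 cells) and *IGFBP2* at 6.48 against 22.4 CPM (-1.65). *IGFBP7* was at 1.30 against 22.6 CPM and *STC1*, an inhibitor of the protease that cleaves IGFBP4, at 1.04 against 14.5 CPM. The receptors *IGF1R* (28.2 against 34.5 CPM) and *IGF2R* (17.4 against 29.1 CPM) did not reach a difference of 1.

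Patterning factors other than the rule genes differed in both directions. Of 24 such genes at 10 CPM or more, 10 were higher and 5 lower, and in S or G2/M cells 7 and 4, while TMM factors gave 9 and 7. Of the 10 higher genes 8 reached 10 CPM in HMX+ JAM2- cells only, and of the 5 lower genes 4 in reference cells only. Among the 13 patterning genes that met the 25% share, 3 were higher and 3 lower, with a median of -0.38. This share has the same limit. The higher *EMX2*, *SHOX2* and *GATA2* met it in HMX+ JAM2- cells only, and the lower *DLX5* and *SNAI2* in reference cells only. Beside *EMX2* and *SHOX2*, the higher genes at 10 CPM or more were *GATA2*, *GATA3*, *IRX2*, *TBX3*, *TBX5*, *TBX15*, *MSX1* and *OSR2*. In S or G2/M cells *TBX3* (0.76), *MSX1* (0.74) and *OSR2* (0.80) differed by less than 1. *GATA2*, a factor of blood and mesenchymal progenitors, was at 60.6 against 14.1 CPM, and *TBX15*, a factor of the shoulder and limb skeleton, at 28.5 against 5.26 CPM. *GATA3* had 44 UMIs in HMX+ JAM2- cells and 3 in reference cells, a ratio of 113 (95% counting interval 36.4 to 571). Lower genes included *SNAI2*, a mesenchymal zinc-finger repressor, at 7.51 against 63.0 CPM, and *FOXC1* at 2.59 against 19.2 CPM. *PRRX1*, the general mesenchymal homeobox gene, was found in 94.3% and 95.7% of cells (63.1% and 77.2% after thinning), at 376 and 635 CPM.

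HOX genes record position along the body axis. Of 17 at 10 CPM or more, 6 were higher and 0 lower, but 4 of the 6 reached this level in HMX+ JAM2- cells only. Among the 7 HOX genes that met the 25% share, which a gene can also meet in 1 group only, 2 were higher and 0 lower. The higher genes were *HOXB5* (10.4 against 1.37 CPM), *HOXC4* (23.8 against 6.26 CPM), *HOXC10* (13.99 against 4.52 CPM), *HOXB6* (35.8 against 12.7 CPM), *HOXC5* (15.5 against 5.29 CPM) and *HOXA9* (39.6 against 18.4 CPM). With TMM factors 5 passed the threshold, and in S or G2/M cells 7. In G1 cells *HOXB5* (0.82), *HOXC4* (0.89) and *HOXA9* (0.55) differed by less than 1, but these values rest on 36 HMX+ JAM2- cells, few for genes at this level. The summed HOX level was 537 CPM in HMX+ JAM2-, 343 CPM in reference and 258 CPM in AT-derived cells, against 0.384 CPM in PB.

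Contractile genes were not uniform either. *ACTG2*, enteric smooth muscle actin, was at 603 CPM against 103 CPM, a difference of 2.54, in 73.3% against 23.2% of cells (55.6% against 12.8% after thinning). *DES*, desmin, was at 17.6 against 1.17 CPM in 7.98% of HMX+ JAM2- cells (3.24% after thinning). *FILIP1L* (174 against 30.3 CPM) and *TNNT1*, a slow muscle troponin (57.3 against 19.3 CPM), were also higher. Lower genes were *TAGLN* (748 against 2131 CPM, with a difference of -1.51 that was -0.86 in G1 cells), *MYL9* (255 against 555 CPM) and *MYLK* (2.07 against 25.4 CPM). The *MYL9* difference was -1.37 in S or G2/M cells and 0.15 in G1 cells. *ACTA2* went likewise from -1.13 to 0.21 and *CNN1* from -0.62 to 0.79. These G1 differences rest on 36 HMX+ JAM2- cells and stayed under 1, so they do not show a reversal. Of the 15 genes, 4 were higher and 3 lower over all cells, and 4 and 4 in S or G2/M cells. Of the 4 higher genes 1 reached 10 CPM in HMX+ JAM2- cells only, and of the 3 lower genes 1 in reference cells only.

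**Figure D5:**
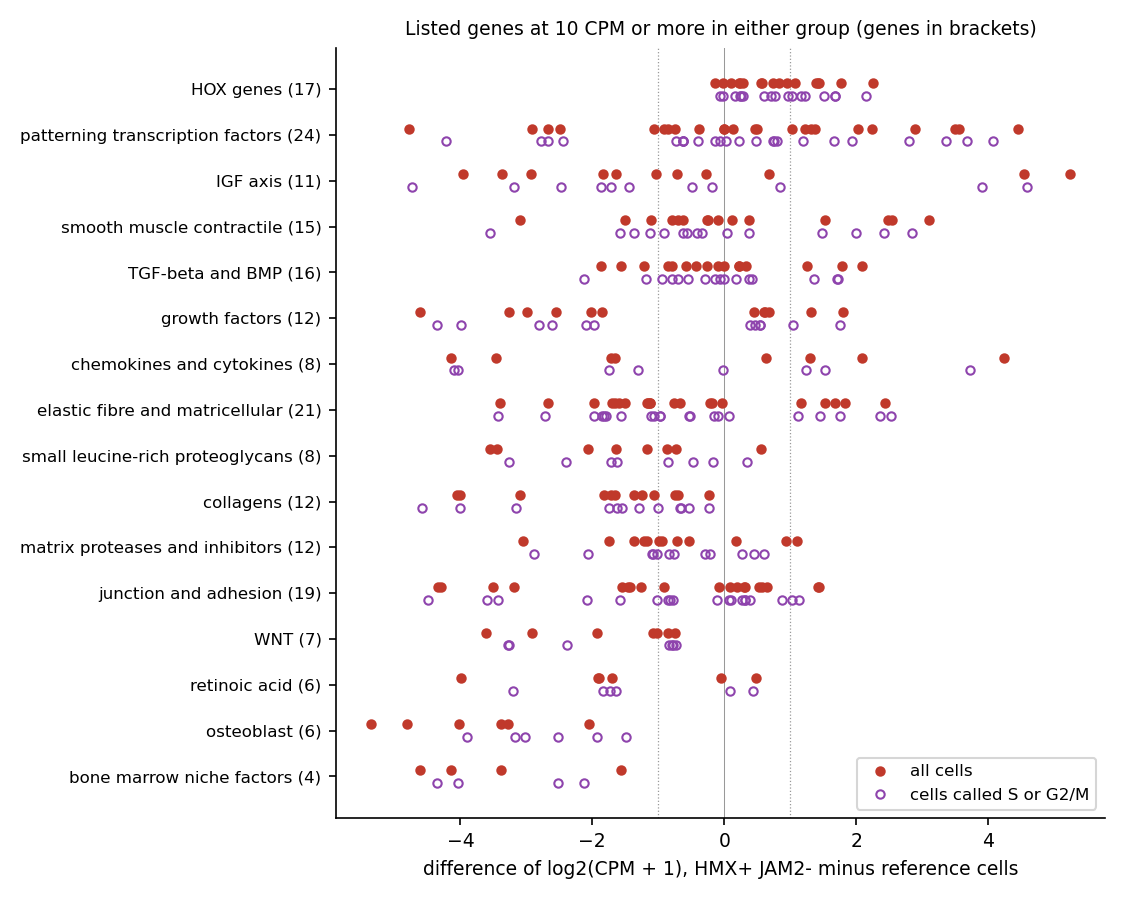
Each point is a listed gene at 10 CPM or more in either BM group, with its difference of log2(CPM + 1), HMX+ JAM2- minus reference cells, on the x axis, filled for all cells and open for cells called S or G2/M. Osteoblast and niche genes, which reached 10 CPM in reference cells only, all lie below -1, 9 of 12 collagens do over all cells, and no HOX gene does.

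Signalling genes differed list by list. Of 16 TGF-β and BMP genes 3 were higher and 3 lower. The higher ones were *ID4* (56.0 against 12.4 CPM), *ID1* (1815 against 760 CPM), both inhibitors of helix-loop-helix factors and targets of BMP, and *CHRDL1*, a BMP antagonist (84.2 against 23.8 CPM), and all 3 were also higher in S or G2/M cells, while *ID1* differed by 0.77 in G1 cells. Of 7 WNT genes 5 were lower and 0 higher, with the secreted antagonist *SFRP2* at 3.37 against 52.3 CPM, but 3 were lower in S or G2/M cells. Of 6 retinoic acid genes 4 were lower, with *ALDH1A3*, a retinal dehydrogenase, at 4.66 against 88.6 CPM. Of 12 growth factor genes 6 were lower and 2 higher, the latter being *SPX* (97.9 against 27.5 CPM) and the neurotrophin *BDNF* (75.9 against 30.05 CPM). *FGF7*, an epithelial growth factor, was at 397 against 1610 CPM. Some lower genes of these lists reached 10 CPM in reference cells only. They were 2 of 3 TGF-β and BMP, 3 of 5 WNT, 2 of 4 retinoic acid and 5 of 6 growth factor genes. Of the higher genes 0 reached it in HMX+ JAM2- cells only.

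Of 8 chemokine and cytokine genes 4 were lower and 3 higher. Of the lower genes 1 reached 10 CPM in reference cells only, and of the higher genes 2 in HMX+ JAM2- cells only. *CCL2*, which attracts monocytes, was at 195 against 613 CPM, and *CCL26*, which attracts eosinophils, at 23.3 against 266 CPM. *CXCL6*, a neutrophil chemokine, was at 80.3 against 18.2 CPM, a difference of 2.08 that was 1.53 in S or G2/M cells and 0.07 in G1 cells. *CXCL14* was at 24.9 against 9.48 CPM.

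Against the label of MSC, the surface antigens were checked first. *THY1* was found in 96.3% of HMX+ JAM2- cells, *B2M* in 96.8%, *ITGB1* in 89.3%, *CD44* in 82.5% and *ENG* in 48.6%, and after thinning these shares were 71.3, 73.6, 53.4, 41.1 and 19.0% in the same order. Of 11 such genes at 10 CPM or more, *ALCAM* was higher (33.7 against 9.51 CPM), and *PDGFRB* (31.6 against 75.1 CPM) and *B2M* (618 against 1270 CPM) were lower. *ALCAM* reached 10 CPM in HMX+ JAM2- cells only. The *B2M* difference was -0.81 in G1 and -0.66 in S or G2/M cells, and that of *PDGFRB* was -0.76 in G1 cells. Several markers of other cell types were not detected. *PTPRC*, *SPI1*, *PECAM1*, *KDR*, *VWF*, *EPCAM*, *CDH1*, *SOX10*, *PAX7* and *MYOD1* had 0 UMIs in HMX+ JAM2- cells, which with 3 UMIs as the floor allows up to 0.777 CPM each. Summed over the marker lists, the levels in HMX+ JAM2- and reference cells were 14.5 and 13.5 CPM for 6 haematopoietic, 2.07 and 2.34 CPM for 7 endothelial, 0.259 and 0.134 CPM for 5 Schwann or neural crest, 65.8 and 99.96 CPM for 7 pericyte and 5.70 and 14.6 CPM for 2 mesothelial genes. The pericyte sum joined genes of both directions, with *PDGFRB* lower as above and *MCAM* at 30.6 against 15.1 CPM. The *MCAM* difference was 0.97, with 1.28 in G1 and 0.71 in S or G2/M cells. The 4 skeletal myogenic genes had 0 UMIs in HMX+ JAM2- cells and summed to 0.0335 CPM in reference cells. The 3 epithelial markers summed to 5.96 against 0.100 CPM, all of it *KRT8*, with 23 against 3 UMIs. *CD68* was at 8.81 against 11.3 CPM and *LAPTM5* at 4.66 against 0.737 CPM, and their part in any result was not tested.

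The AT and PB libraries gave a measure that shares no cells with the BM groups. Of 96 genes that were higher in AT than in PB by 1 or more, and detected in 25% or more of AT or PB cells, 24 were also higher in HMX+ JAM2- than in reference cells and 13 were lower. Of 153 genes higher in PB than in AT, 4 (2.61%) were higher and 82 (53.6%) lower. Of 2766 genes that differed by less between AT and PB, 145 (5.24%) were higher and 137 (4.95%) lower. In S or G2/M cells, 22 of the 96 genes were higher and 12 lower, and of the 153 genes 2 were higher and 69 lower. Of the 2766 other genes 35 were higher and 71 lower in these cells. Of the genes higher in PB the larger number was thus lower in HMX+ JAM2- cells. Among others, *IGFBP3*, *CALCA*, *EMB*, *PDLIM3* and the summed HOX genes were higher in them than in either other source. The summed HOX level was also above both other sources in reference cells (343 CPM) and in cells with neither in the main cluster (545 CPM). Source and library cannot be told apart.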

How the data were processed

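Cultured MSCs of 1 horse were profiled, with 1 library each of AT, BM and PB. Reads had been aligned by the authors to the EquCab3.0 genome (CellRanger), with ESAT as the counting tool, and the deposited values are raw counts of UMIs in whole numbers. Barcodes with 2500 to 15000 UMIs and at most 3% on chromosome MT were kept here, 5403 in AT, 5580 in BM and 5318 in PB. Doublets were limited only by the upper bound, and it is not known whether the authors' multiplet calls are still in the matrices. UMIs were summed over the cells of a group and given as CPM, and groups were compared by differences of log2(CPM + 1). No test was run. Poisson and Clopper-Pearson intervals were made with SciPy 1.17.1, phases with Seurat 5.3.0 and clusters with sctransform 0.4.2 (3000 variable genes, 23 principal components, 20 neighbours, resolution 0.6, mitochondrial percentage and cell cycle difference regressed, genes in at least 3 cells) in R 4.3.3, Scrublet scores with Scanpy 1.11.5 and TMM factors with edgeR 4.0.16. Of 43 S and 54 G2/M list genes, 40 and 50 were in the matrix.

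Named genes were the 12 at either end of the difference over genes detected in 25% or more of either group, the 6 highest below that share with 20 or more UMIs in HMX+ JAM2- cells, *IGFBP5*, and members of fixed lists at 10 CPM or more. The members, lists and comparisons were chosen with earlier results of these data known. On simulated Poisson counts for HMX+ JAM2- against reference cells over 4027 genes, 100 of 100 genes raised and 100 of 100 lowered 4-fold were recovered and 0 of 3827 unchanged genes passed, a check of the arithmetic alone. The alternatives varied the filters on cells and genes, the rule, the reference cells, the phase, the pseudocount, the scaling and the depth. Genes listed by Ensembl ID alone were left unnamed, since the table of names used here held no such IDs, and sequences were not used here. A few listed genes are not reported here.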

Additional observations from a re-analysis of the deposited data

How the results depend on the processing

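The 12 leading and 12 lowest genes kept a difference of 1 or more in their direction under all 16 other settings tried. With every cell thinned to 2500 UMIs and the groups chosen again, 220 cells met the rule, and 160 genes were higher and 111 lower among 1506. A threshold of 2 UMIs left 231 cells. Over G1 cells alone (36 HMX+ JAM2- cells) 222 genes were higher and 185 lower. Over S or G2/M cells, with the 25% share taken in these cells (4044 genes), 120 were higher and 145 lower. A pseudocount of 25 CPM gave 217 and 144, a share of 10% gave 742 and 449, and no filter gave 1142 and 1044. The *IGFBP5* difference was 5.70 in G1 cells, 4.59 in S or G2/M cells, 3.44 against all other BM-derived MSCs, which include cells of the same cluster, and 2.17 with a pseudocount of 25 CPM. Where the alternative itself does not show the cause, the cause was not tested. The share of HMX+ JAM2- cells in S or G2/M lay between 88.6 and 92.6%, their share in the main cluster between 97.5 and 98.3%, and the AT-over-PB genes higher between 18 and 34. Added after seeing the data, HMX+ JAM2- cells of the main cluster against reference cells of the other clusters gave 491 genes higher and 241 lower, and leaving out shared barcodes 461 and 233. No paired analysis was possible because each source had 1 library. Depth limits genes near 0.777 CPM, the level of 3 UMIs in the 401 cells.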

Other observations

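Stress and cell cycle entry genes, not described above, also differed. Of 13 heat shock and stress genes at 10 CPM or more, 6 were lower in HMX+ JAM2- cells and 2 higher, and 5 and 1 in S or G2/M cells. Of the 6 lower genes 2 reached 10 CPM in reference cells only. Lower were genes of the integrated stress response such as *DDIT3* (45.3 against 200 CPM), *DDIT4* (78.5 against 313 CPM), *ASNS* (11.7 against 42.9 CPM) and *ATF4* (290 against 618 CPM). In G1 cells the *DDIT3* difference of -2.12 was -0.18 and the *ATF4* difference of -1.09 was -0.15. *ASNS* differed by -0.81 and *DDIT4* by -1.24 in G1 cells. *HSP90AA1*, a cytosolic chaperone, was higher at 1420 against 449 CPM, and *HSPH1* at 62.4 against 22.3 CPM, a difference of 1.44 that was 0.36 in G1 and 0.97 in S or G2/M cells. Of 11 G1 regulators 3 were higher and 3 lower, and in S or G2/M cells 1 and 3. Of the 3 higher ones 2 reached 10 CPM in HMX+ JAM2- cells only. *CCND2*, cyclin D2, was at 38.6 against 6.87 CPM, with a difference of 2.33 over all and 2.79 in S or G2/M cells. The inhibitors *CDKN1C* (18.1 against 74.97 CPM) and *CDKN2A* (23.8 against 79.8 CPM) were lower in both phase classes, whereas *CDKN1A* (40.7 against 102 CPM) differed by -0.02 in G1 cells.

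Of 13 immediate early genes 4 were lower and 1 higher, and 2 and 0 in S or G2/M cells. Of the 4 lower genes 1 reached 10 CPM in reference cells only. Of 54 cytosolic ribosomal protein genes and 20 mitochondrially encoded genes at this level, 0 differed by 1 or more, and their median differences were -0.06 and 0.23 against 0.18 over all 7485 genes. The median share of ribosomal protein UMIs was 15.4% in HMX+ JAM2- and 17.0% in reference cells.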
